A study of Mus musculus with 35 samples.

Results

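Day 17 is the last but one of the days sampled after Dnmt1 was deleted in mouse embryonic stem cells (ESCs). Its members are the 4 total RNA-seq libraries labelled d17, 2 of control cells with the genotype Wildtype (WT) and 2 of cells with the genotype Dnmt1 KO, out of 35 libraries in the series. Both genotypes are given in the labels as ESCs of background strain E14, while the methods of the study name a C57BL/6 line with loxP sites in both copies of Dnmt1, in which an induced Cre removes the gene. Cells were grown in serum with LIF, with or without feeder cells, and which of the 4 cultures had feeders is not given in the sources used here. KO cells come from 1 line in these sources, and the 2 libraries of a group are biological replicates per the series text, without word of separate clones. Levels are given as RPKM, the reads of a gene scaled by its exon length and by the reads of its library. A difference is KO minus WT in log2(RPKM + 0.1), and the added 0.1 makes changes of genes with low levels look smaller than they are. A gene was called where limma gave a Benjamini-Hochberg adjusted p below 0.05 (two-sided, 2 libraries a side, spread pooled over the 12 libraries of days 11, 17 and 25).

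DNMT1 copies the methylation of cytosine in CG dinucleotides onto the new DNA strand after replication, and without it methylation is lost as cells divide. DNMT3A and DNMT3B, with the cofactor DNMT3L, set methylation anew. Genes known to be held silent by promoter methylation in ESCs include a group of germline genes, an allele of some imprinted genes and X-linked families such as Rhox and Xlr.

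The depth of the 4 libraries was alike, with 29.6 to 30.9 mega-reads each, of which 13.8 to 14.9 fell in exons. A level of 3 reads corresponded to 0.097 to 0.101 RPKM for a transcript of 1 kb, and this covers counting error only. The WT pair correlated across genes at r = 0.989 and the KO pair at r = 0.993. Dnmt1 followed the labels, with 16.2 and 17.4 RPKM in WT and 4.25 and 4.20 RPKM in KO (log2 difference -1.97, SE 0.16, limma adjusted p = 1.1e-05), and both KO libraries lay below both WT libraries.

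Markers of ESCs were high in both genotypes. Summed over Pou5f1, Sox2, Nanog, Zfp42, Lin28a and Sall4, the 6 ESC markers, the level was 423 to 474 RPKM in WT and 461 to 489 RPKM in KO. The 9 fibroblast markers, which would mark feeder cells, summed to 0.889 to 1.09 RPKM in WT and 0.696 to 0.764 RPKM in KO, and 7 of them, Col1a1, Col1a2 and Col3a1 included, were below 0.1 RPKM in all 4 libraries. A longer list of 17 fibroblast genes, which adds broadly expressed genes such as Vim and Fn1, summed to 23.4 and 25.6 RPKM in WT and 28.0 and 29.0 RPKM in KO. Of its 4 tested genes 2, Twist1 and Vim, were called, both higher (1 with library medians set equal). Fn1 and Thy1 were not called and went the other way, with differences of -0.79 and -0.47. The list median was 0.10, beside 0.09 over all genes tested, of which 19.6% were called higher. The 6 primitive endoderm markers, each below 1 RPKM in all 4 libraries, summed to 1.82 to 2.63 RPKM in WT and 2.21 to 2.52 RPKM in KO.

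Markers of other lineages were low but not equal between the genotypes. The 4 mesoderm markers, each below 1 RPKM in all 4 libraries, summed to 0.347 to 0.380 RPKM in WT and 0.936 to 1.25 RPKM in KO, most of it from T, with 0.102 and 0.145 in WT and 0.769 and 0.679 in KO (RPKM). The 5 trophoblast markers summed to 0.796 to 0.917 RPKM in WT and 4.33 to 4.78 RPKM in KO. Of these Krt7 and Hand1 were called higher, and Cdx2, Elf5 and Gata3, which define the lineage, were below 1 RPKM in all 4 libraries and below the filter, with Cdx2 at 0.224 and 0.163 in WT and 0.343 and 0.304 in KO, Elf5 at 0 and 0 in WT and 0.110 and 0.0501 in KO and Gata3 at 0.0849 and 0.0843 in WT and 0.236 and 0.173 in KO (RPKM). Each of these 3 was higher in both KO libraries than in both WT libraries, but none was tested. How many of all genes separate in this way without a call was not counted. Among 11458 tested genes, 2149 met a stricter rule, with a higher call, such separation and a KO mean of at least 1 RPKM. The part of cells of these lineages in the results was not tested.

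Genes higher in KO outnumbered those lower in KO. Of 11458 genes tested, 2251 (19.6%) were called higher and 641 (5.59%) lower, with a median difference of 0.71 among the former, -0.53 among the latter and 0.09 over all genes tested. A difference of at least 1 on the log2 scale was found for 663 of the genes called higher and 75 of those called lower. Genes called higher started from a low level, with a median of 2.42 RPKM in WT, against 9.75 RPKM for those called lower and 3.85 RPKM over all genes tested. In 42 of the genes called higher each WT library had at most 3 reads, and in 3 of those called lower each KO library did. The excess of higher calls rests in part on the scale. Setting each library's median to a common value moved the median of all genes by 0.18 and gave 1349 higher and 1535 lower, and scaling by median ratios, an alternative chosen after seeing the data, moved it by 0.12 and gave 1589 and 1261. Without 1 day 17 library the calls fell to 1256 to 1637 higher and 261 to 446 lower, and without either KO library of day 11, which differed from each other more than any other pair of these days (also chosen after seeing the data), they rose to 2887 or 2888 higher and 1098 lower.

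**Figure D1:**
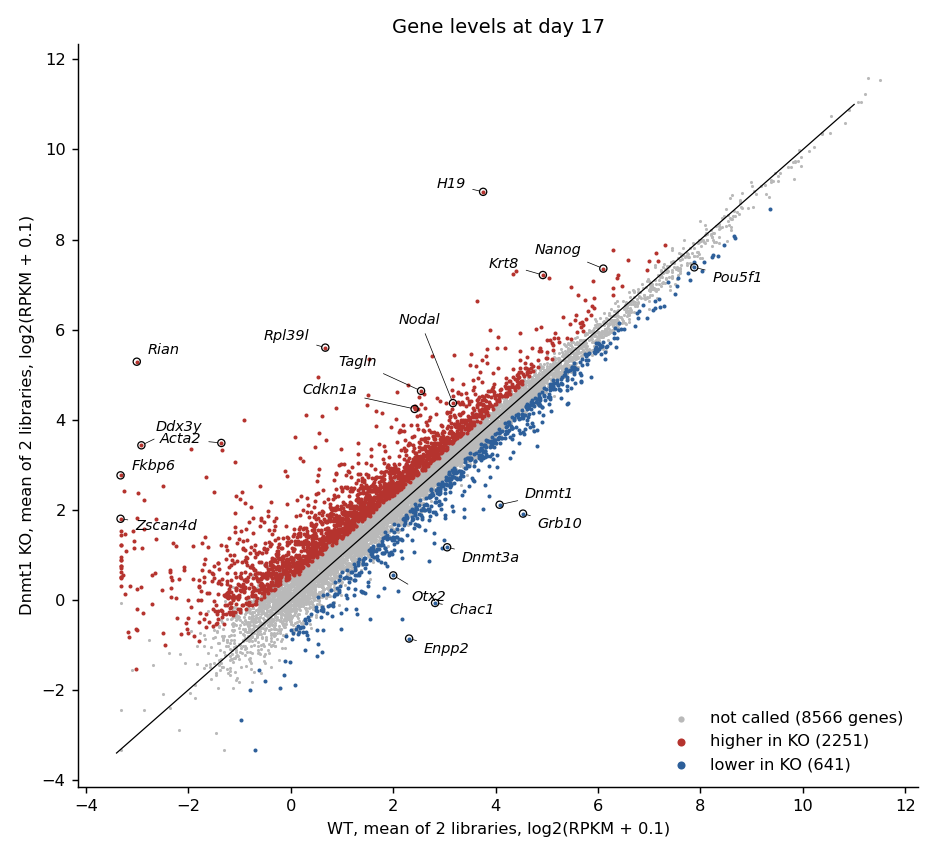
Level of each of 11458 tested genes at day 17, WT on the horizontal and KO on the vertical axis, both as the mean of 2 libraries in log2(RPKM + 0.1). Red points are the 2251 genes called higher and blue points the 641 called lower, the line marks equal levels, and circled genes are named in the text; H19, Rian and Rpl39l lie far above the line and Chac1 and Enpp2 far below it.

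Imprinted genes, which are expressed according to the parent a copy came from, held the largest difference of all genes tested. Rian, a maternally expressed long RNA of the Dlk1-Dio3 region that hosts small nucleolar RNAs (NCBIM37 chromosome 12, 110842155 to 110899919, plus strand), had 0.0206 and 0.0286 RPKM in WT and 40.1 and 37.9 RPKM in KO (log2 difference 8.29, SE 0.19, limma adjusted p = 1.6e-09). The ratio of the means, 1583, rests on 5 and 7 reads in the WT libraries, and the gene shares bases with SNORD113 on its own strand. Its neighbour Mirg, a host of miRNAs, had 0 and 0.0106 RPKM in WT and 5.08 and 5.49 RPKM in KO, a ratio of 997 with a 95% counting interval of 179 to 39419.8, since WT had 1 read in all. Meg3 of the same region had no read in WT and 1.82 and 1.65 RPKM in KO, at least 622-fold higher when WT is set at the floor of 3 reads over its 2 libraries. The paternally expressed Rtl1 of this region, with 0.0425 and 0 RPKM in WT and 2.48 and 2.27 RPKM in KO, was also called higher (log2 difference 4.37, limma adjusted p = 6.4e-07), but it lies opposite to miRNAs on the other strand and the gene counting is not stated to use strand.

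H19, a maternally expressed long RNA (NCBIM37 chromosome 7, 149761434 to 149764048, minus strand), was abundant in KO, at 13.1 and 13.7 RPKM in WT and 507 and 561 RPKM in KO (log2 difference 5.30, SE 0.11, limma adjusted p = 1.0e-09). Igf2, the growth factor expressed from the other parental copy of that region, ran the other way at 1.95 and 2.16 RPKM in WT and 0.930 and 0.941 RPKM in KO (log2 difference -1.06, limma adjusted p = 0.0047). Grb10, an adaptor protein that restrains growth signals (NCBIM37 chromosome 11, 11830511 to 11938686, minus strand), fell from 22.1 and 24.1 RPKM in WT to 3.77 and 3.57 RPKM in KO (log2 difference -2.62, SE 0.09, limma adjusted p = 6.6e-08). A pair of neighbours in the Kcnq1 region, the cell cycle inhibitor Cdkn1c and the placental growth regulator Phlda2, were lower in KO at a log2 difference of -1.08 and -1.73 (limma adjusted p = 6.1e-05 and 1.3e-05).

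The imprinted genes that passed the filter were counted by the parental copy they are known to use. A gene that is silent in WT passed the filter only where it was higher in KO or on another day. Counts and medians over the tested genes of this and the following lists are therefore descriptions. They stand beside 19.6% of all genes tested called higher and 5.59% lower. Of 14 tested genes expressed from the maternal copy (24 listed and in the table) 6 were called higher and 3 lower, with a median of 0.40. Of 19 tested genes expressed from the paternal copy (25 in the table) 14 were called higher and 1, Igf2, lower, with a median of 0.86, beside 0.09 for all genes tested. Plagl1, a zinc finger regulator, had 0.171 and 0.235 RPKM in WT and 2.33 and 2.24 RPKM in KO (log2 difference 2.98, limma adjusted p = 4.0e-05). Impact, a regulator of translation, had 17.5 and 15.5 RPKM in WT and 58.2 and 56.1 RPKM in KO (log2 difference 1.79, limma adjusted p = 3.1e-07). Sgce, Peg12, Sfmbt2, Peg10 and Zrsr1 were higher by 2.08, 1.93, 1.59, 1.48 and 1.197. Peg3, Mest, Snrpn, Ndn, Nnat and Slc38a4 were higher by 0.51 to 0.97, on WT levels of 2.72 RPKM (Ndn) to 49.8 RPKM (Snrpn). Genes of the maternal list that were not called include Igf2r, with 3.05 and 4.04 RPKM in WT and 5.77 and 5.32 RPKM in KO (limma adjusted p = 0.076), and Ube3a, with 23.9 and 23.96 RPKM in WT and 23.5 and 23.9 RPKM in KO.

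Germline genes known to be silenced by promoter methylation were the next group. Of 21 tested (26 in the table) 15 were called higher and 2 lower, with a median of 1.36. Since these genes are known for methylated promoters, their promoter letters are shown, although methylation itself was not among the values used here. The windows run from 250 bases before to 50 bases after the RefSeq start of 3 of these genes and of the testis paralog Rpl39l (GRCm38.p6, 5′ to 3′ on the gene's strand), with CG dinucleotides in capitals. Fkbp6 has 2 RefSeq starts, of which the window with fewer CG dinucleotides is shown.

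Fkbp6, chr5:135349995-135350294, minus strand: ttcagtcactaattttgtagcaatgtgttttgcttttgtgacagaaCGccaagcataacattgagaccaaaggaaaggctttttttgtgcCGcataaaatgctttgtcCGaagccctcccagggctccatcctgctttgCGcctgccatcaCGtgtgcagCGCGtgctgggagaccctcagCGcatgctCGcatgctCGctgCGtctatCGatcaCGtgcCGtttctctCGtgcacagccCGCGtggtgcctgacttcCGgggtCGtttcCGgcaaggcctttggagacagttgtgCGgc
Asz1, chr6:18109012-18109311, minus strand: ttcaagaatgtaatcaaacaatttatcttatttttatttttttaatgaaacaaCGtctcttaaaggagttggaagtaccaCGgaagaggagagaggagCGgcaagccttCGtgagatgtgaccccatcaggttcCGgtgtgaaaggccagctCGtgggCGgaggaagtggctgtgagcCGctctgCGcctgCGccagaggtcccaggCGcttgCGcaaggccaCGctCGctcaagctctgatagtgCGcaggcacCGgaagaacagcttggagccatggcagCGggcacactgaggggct
Dazl, chr17:50293571-50293870, minus strand: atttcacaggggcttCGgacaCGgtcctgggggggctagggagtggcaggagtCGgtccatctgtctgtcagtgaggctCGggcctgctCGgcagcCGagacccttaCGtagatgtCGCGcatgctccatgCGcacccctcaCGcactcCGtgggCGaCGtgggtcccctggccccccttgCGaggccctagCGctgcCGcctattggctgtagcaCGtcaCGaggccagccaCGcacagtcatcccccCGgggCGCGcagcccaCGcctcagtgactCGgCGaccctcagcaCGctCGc
Rpl39l, chr16:10169978-10170277, plus strand: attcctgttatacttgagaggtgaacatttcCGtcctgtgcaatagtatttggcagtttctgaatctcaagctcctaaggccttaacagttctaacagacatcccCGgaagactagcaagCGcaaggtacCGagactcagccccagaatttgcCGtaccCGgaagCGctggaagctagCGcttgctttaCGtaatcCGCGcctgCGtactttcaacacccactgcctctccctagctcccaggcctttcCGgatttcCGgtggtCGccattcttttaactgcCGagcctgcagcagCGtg

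These windows hold 21 (Fkbp6), 17 (Asz1), 28 (Dazl) and 17 (Rpl39l) CG dinucleotides. As many or more were found in 24.8%, 31.4%, 14.2% and 31.4% of the 32851 windows of the RefSeq table. Over the 18 tested germline genes with a window the median was 21.5 CG dinucleotides in the window that held most, against 22 over the 8733 tested genes with a window. The E-box CACGTG, a palindrome that holds a CG in its centre, was found in 11 of the 18 (61.1%), against 12.4% of all tested genes with a window. It was in 7 of the 14 with a window that were called higher and in 2 of the 2 called lower. TTCCCGC, searched on both strands, was found in 6 of the 18 (33.3%) against 10.5%. The list was assembled from known genes, and a match is a description of the letters and not a binding site.

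Fkbp6, a cochaperone needed in male meiosis, had no read in WT and 6.89 and 6.50 RPKM in KO, at least 229.6-fold higher with WT at the floor of 3 reads (limma adjusted p = 2.3e-07). Asz1, of the piRNA pathway that silences transposons in germ cells, had 1 read in WT and 0.902 and 1.11 RPKM in KO, a ratio of 169 with a 95% counting interval of 30.0 to 6716. Dazl, an RNA-binding protein of germ cells, had 1.48 and 1.18 RPKM in WT and 5.91 and 6.404 RPKM in KO (log2 difference 2.14, SE 0.14, limma adjusted p = 3.2e-06). Among genes of meiosis and the piRNA pathway that already had RNA in WT, Hormad1 went from 3.34 to 17.6 RPKM and Tex19.1 from 12.9 to 33.5 RPKM (means of 2 libraries, log2 differences 2.36 and 1.38). Fmr1nb, an X-linked testis gene, rose by 3.48, Slc25a31 by 2.23, Smc1b by 1.99, Stk31 by 1.54 and Piwil2 by 0.81. Sycp3, a protein of the meiotic chromosome axis, was lower in KO at 5.08 and 3.72 RPKM in WT and 1.76 and 2.30 RPKM in KO (log2 difference -1.07, limma adjusted p = 0.0021), and so was Mael (-0.53). Ddx4 and Rnf17 were not called and differed by -0.06 and -0.22, with WT levels of 3.11 and 23.1 RPKM.

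Testis paralogs of housekeeping genes, which replace an X-linked or widely used gene in spermatogenesis, were called higher in 6 of 7 tested (14 in the table). Rpl39l, a copy of a ribosomal protein gene, had 1.79 and 1.25 RPKM in WT and 49.5 and 47.3 RPKM in KO (log2 difference 4.92, SE 0.19, limma adjusted p = 9.7e-08), and Cox7b2, a copy of a respiratory chain subunit, 1.74 and 1.73 RPKM in WT and 20.2 and 17.99 RPKM in KO (log2 difference 3.38, limma adjusted p = 6.4e-07). Ldhc, the testis lactate dehydrogenase, was higher by 2.63 and the cytochrome c paralog Cyct lower at a log2 difference of -0.68. For Rpl39l, as for the X-linked families and Zscan4 below, reads of low mapping quality were discarded by the authors, so levels within a family are uncertain.

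Members of X-linked reproductive families were higher in KO. Rhox6, a homeobox gene of placenta and germ line, had 2.91 and 2.66 RPKM in WT and 41.3 and 40.3 RPKM in KO (log2 difference 3.83, SE 0.19, limma adjusted p = 3.2e-07). Rhox9 had 0.901 and 1.03 RPKM in WT and 11.6 and 12.8 RPKM in KO. Of the 30 Rhox genes in the table only 5 passed the filter on low values, of which 4 were called higher. All 7 tested Xlr genes (10 in the table), a family of lymphoid and testis nuclear proteins, were called higher, with Xlr3b at 0.0625 and 0.0621 RPKM in WT and 3.30 and 3.50 RPKM in KO. Their median was 4.08, or 4.61 with the 3 genes that had no WT read at their bound.

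Zscan4 genes, which are switched on in the 2-cell embryo and in rare cells of ESC cultures, had almost no read in WT. Zscan4d had none in WT and 3.23 and 3.55 RPKM in KO, at least 134-fold higher (limma adjusted p = 1.8e-06). Zscan4f, Dub1a and Dub3 had none in WT either and were at least 125-fold, 56.7-fold and 73.4-fold higher. All 5 tested genes of this list (15 in the table) were called higher, with a median of 4.55, or 6.198 with these 4 at their bound, while 14 were called without the filter on low values and none had a mean above 1 RPKM over the 12 libraries. In bulk RNA a larger share of cells with a gene and more RNA per cell cannot be told apart, here and in all other groups. The mean KO level of Zscan4d was 1.38 RPKM at day 11, 3.39 at day 17 and 0.605 at day 25.

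Y-linked genes were called higher in 6 of 6 tested (9 listed). Ddx3y, an RNA helicase, had 0.0364 and 0.0289 RPKM in WT and 10.6 and 10.8 RPKM in KO (log2 difference 6.35, limma adjusted p = 1.7e-07), and Eif2s3y, a translation initiation factor, 0.178 and 0.145 RPKM in WT and 10.1 and 10.1 RPKM in KO. Uty had 0.0220 and 0.0305 RPKM in WT and 5.12 and 5.12 RPKM in KO and Ube1y1 0.0763 and 0.00843 RPKM in WT and 4.70 and 4.40 RPKM in KO. The 7 tested genes of the Y chromosome had a median of 5.07, while the medians of the 19 autosomes lay between 0.00 and 0.13 and that of X at 0.07. The WT mean of Ddx3y was 0.0921, 0.0327 and 0.0522 RPKM at days 11, 17 and 25, and the KO mean 8.46, 10.7 and 10.9 RPKM. The share of cells with a Y chromosome in each genotype was not tested. The WT and KO libraries thus differ in Y-linked RNA besides Dnmt1. All differences given here are between these 2 cell populations, and how much of them comes from Dnmt1 loss was not tested. Xist, the RNA that silences an X chromosome, was not called, at 0.659 and 1.40 RPKM in WT and 1.71 and 1.72 RPKM in KO.

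**Figure D2:**
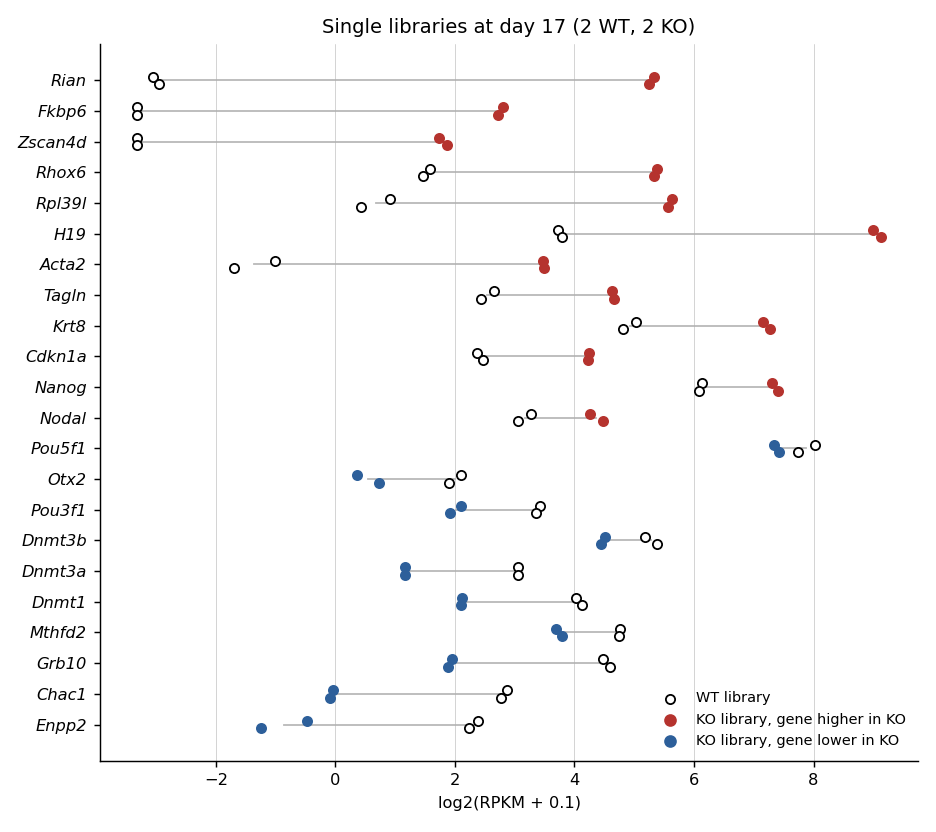
Level of 22 genes in each of the 4 libraries of day 17, in log2(RPKM + 0.1) on the horizontal axis. Open circles are WT libraries, filled circles KO libraries, red where KO was higher and blue where it was lower, and the line joins the genotype means; the line is longest for Rian (8.29) and shortest for Pou5f1 (-0.50).

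Factors of naive pluripotency, the ground state of the early epiblast, were on the higher side. Of 17 tested, 9 were called higher and none lower, with a median of 0.56. Under each rescaling 6 were called higher. Nanog had 69.9 and 67.4 RPKM in WT and 158 and 169 RPKM in KO (log2 difference 1.25, SE 0.13, limma adjusted p = 6.9e-05). Prdm14, which restrains FGF signalling and methyltransferase genes, had 0.948 and 1.27 RPKM in WT and 2.56 and 2.79 RPKM in KO (log2 difference 1.21, limma adjusted p = 3.7e-04). Fbxo15 had 14.5 and 13.3 RPKM in WT and 40.4 and 44.3 RPKM in KO and Pecam1 2.73 and 2.78 RPKM in WT and 6.68 and 6.75 RPKM in KO, differences of 1.601 and 1.25. Esrrb, Tcfcp2l1, Zfp42, Tcl1 and Dppa3 were higher by 0.42 to 0.65. Klf4, Klf5, Tbx3, Nr0b1, Dppa4 and Dppa5a were not called, with differences of -0.26 to 0.56. Without the second KO library 4 were called.

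Core and formative factors lay on the other side. Of 10 tested, 7 were called lower and 1, Sox2, higher by 0.27, and none was called higher under either rescaling or without any 1 of the 4 libraries. Otx2, which opens enhancers as ESCs leave the naive state, had 4.17 and 3.65 RPKM in WT and 1.18 and 1.56 RPKM in KO (log2 difference -1.46, SE 0.16, limma adjusted p = 1.1e-04). Pou3f1, a POU factor of the epiblast, had 10.6 and 10.1 RPKM in WT and 4.22 and 3.67 RPKM in KO (log2 difference -1.37, limma adjusted p = 3.6e-05). Pou5f1, the core POU factor, had 260.4 and 213 RPKM in WT and 162 and 172 RPKM in KO (log2 difference -0.50, limma adjusted p = 0.015). Utf1, Lin28b, Foxd3 and Lin28a were lower, with differences of -0.78 to -0.45. In the fit over all 34 libraries 2 of the list were called lower.

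Signals that act between these states moved unequally. Nodal, the ligand of the pathway, had 9.61 and 8.21 RPKM in WT and 19.005 and 22.2 RPKM in KO (log2 difference 1.201, SE 0.11, limma adjusted p = 2.4e-05), and its inhibitor Lefty2 was higher by 0.79, while Lefty1 differed by 0.02 and was not called. The coreceptor Tdgf1 was lower, at 445 and 376 RPKM in WT and 257 and 269 RPKM in KO (log2 difference -0.64, limma adjusted p = 0.034), but no gene of the list was called lower without any 1 of the 4 libraries. Of 12 tested FGF-ERK ligands, feedback genes and targets 6 were called lower and 3 higher. Fgf4, the ligand, had 46.6 and 45.9 RPKM in WT and 32.2 and 34.1 RPKM in KO (log2 difference -0.48, limma adjusted p = 0.0042). The feedback inhibitors Spry4, Spry2, Spred1 and Dusp6 were lower at a log2 difference of -1.17, -0.63, -0.58 and -0.46, and the target Etv4 by -0.60. Phlda1, Dusp4 and Etv5 of the same list were higher by 1.34, 0.86 and 0.68. None was called lower in the fit over all 34 libraries, and none higher without the first WT or the first KO library.

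DNA methyltransferases other than the deleted one also differed. Dnmt3a had 8.17 and 8.25 RPKM in WT and 2.14 and 2.15 RPKM in KO (log2 difference -1.89, SE 0.12, limma adjusted p = 2.7e-06), beside -1.97 for Dnmt1. It shares exon sequence with Gm10485 on the other strand. Dnmt3b had 36.4 and 41.3 RPKM in WT and 22.6 and 21.8 RPKM in KO (log2 difference -0.80, limma adjusted p = 0.0095), and Dnmt3l, at 50.4 and 45.4 RPKM in WT and 56.4 and 58.1 RPKM in KO, was not called (limma adjusted p = 0.11). Uhrf1, which brings DNMT1 to replicated DNA, had 28.0 and 30.2 RPKM in WT and 33.4 and 35.5 RPKM in KO and was not called, while the remodeller Hells and the dioxygenase Tet2 were lower at a log2 difference of -0.46 and -0.39. In all, 5 of 16 tested genes of methylation and demethylation were called lower and none higher, with 3 to 6 lower without 1 of the day 17 libraries. An unadjusted p below 0.05 in limma was found for 3 genes on the higher side, and voom called none. The WT mean of Dnmt3a was 2.64 RPKM at day 11, 8.21 at day 17 and 4.73 at day 25, and the KO mean 1.92, 2.15 and 4.49.

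Most other chromatin and small RNA regulators were not called. Of 19 genes of H3K9 methylation and transposon repression 2, Cbx1 and Cbx5 of heterochromatin, were lower (-0.60 and -0.30) and 1, the retroviral repressor Zfp809, higher (0.57), and under the rescalings 8 were lower. Of 9 genes of small RNA production none was called by limma or by voom, with 2 at an unadjusted p below 0.05, and Dicer1 had 3.90 and 5.68 RPKM in WT and 6.97 and 6.56 RPKM in KO (limma adjusted p = 0.073). Without the second WT library 1 was called higher. Of 11 subunits and partners of Polycomb repressive complex 2, 3 were called higher and 2 lower, beside 19.6% and 5.59% of all genes tested. Phf19 was higher at 1.05 and 0.939 RPKM in WT and 2.61 and 2.47 RPKM in KO (log2 difference 1.27, limma adjusted p = 7.3e-05). Aebp2 and Suz12 were higher by 0.58 and 0.36, and Eed and Rbbp4 lower (-0.34 and -0.31). Without the first WT or the first KO library 1 was called higher, and without either of these or the second KO library none was called lower.

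Simple epithelial keratins and trophoblast regulators were called higher throughout. All 11 tested (14 in the table) were called higher, with a median of 2.10. Under each rescaling 10 were called, and 7 without the first WT library. Krt8 and Krt18, which pair in one filament, had 32.6 and 28.0 RPKM in WT and 142 and 154 RPKM in KO (log2 difference 2.29, limma adjusted p = 3.1e-07) and 36.2 and 29.9 RPKM in WT and 142 and 140.3 RPKM in KO (log2 difference 2.10, limma adjusted p = 3.2e-06). Krt19 and Krt7 were higher by 2.52 and 2.58. Among regulators, Tcfap2c had 1.76 and 2.01 RPKM in WT and 8.12 and 7.98 RPKM in KO (log2 difference 2.04, limma adjusted p = 2.5e-05) and Id2 8.40 and 9.03 RPKM in WT and 27.6 and 32.5 RPKM in KO. Hand1 and the placental gene Plac1 remained low in absolute terms, with KO means of 1.46 and 1.45 RPKM. The defining markers Cdx2, Elf5 and Gata3 were below the filter and not tested, with the values given above.

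Actin-binding and contractile genes that respond to SRF and YAP were the next list. Of 13 tested, 10 were called higher and none lower (median 1.43). Acta2, smooth muscle actin (NCBIM37 chromosome 19, 34315580 to 34329826, minus strand), had 0.398 and 0.207 RPKM in WT and 11.05 and 11.13 RPKM in KO (log2 difference 4.84, SE 0.30, limma adjusted p = 2.0e-06). Tagln, an actin-binding protein of smooth muscle, had 6.195 and 5.31 RPKM in WT and 24.5 and 25.16 RPKM in KO (log2 difference 2.10, limma adjusted p = 3.2e-06), Csrp1 11.8 and 10.6 RPKM in WT and 35.3 and 39.3 RPKM in KO and Tpm1 15.2 and 13.2 RPKM in WT and 36.9 and 39.7 RPKM in KO. Cyr61, a matrix protein that responds to YAP, was higher by 1.61, and Myl9, Cald1 and Cnn2 by 1.93, 1.70 and 1.32. Cnn1, Tpm2 and Ankrd1 were not called. The collagens Col4a1 and Col4a2, which lie head to head and share annotated bases, were higher by 1.21 and 1.15. Both belong to the primitive endoderm list and not to this one.

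Targets of p53, the factor that answers DNA damage, were called higher in 13 of 18 tested and lower in none (median 0.91). Cdkn1a, which stops the cell cycle, had 5.06 and 5.45 RPKM in WT and 18.9 and 18.7 RPKM in KO (log2 difference 1.82, SE 0.08, limma adjusted p = 2.3e-07). Mdm2, the ligase that degrades p53, had 9.59 and 10.9 RPKM in WT and 20.2 and 20.2 RPKM in KO (log2 difference 0.98, limma adjusted p = 1.6e-04). Perp, Btg2, Phlda3, Plk2, Trp53inp1, Ccng1 and Eda2r were higher by 1.11 to 1.75. The apoptosis genes divided, with Pmaip1 higher by 0.58 and Tnfrsf10b by 0.84, and Bax and Bbc3 not called (0.29 and 0.34). Under each rescaling 12 were called higher.

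Cell cycle inhibitors of the Ink4 locus were called higher, Cdkn2a at 0.606 and 1.18 RPKM in WT and 4.39 and 4.17 RPKM in KO (log2 difference 2.21, limma adjusted p = 3.6e-04) and Cdkn2b at 0.727 and 0.626 RPKM in WT and 2.60 and 2.68 RPKM in KO (log2 difference 1.82, limma adjusted p = 6.3e-05). Of the 12 tested genes of the G1 list, 4 were called higher and 1, Ccne1, lower at a log2 difference of -0.27, beside 19.6% and 5.59% of all genes tested. Gadd45b, a stress gene, had 3.89 and 4.19 RPKM in WT and 15.3 and 17.003 RPKM in KO (log2 difference 1.97, limma adjusted p = 2.5e-05), and Gadd45g was higher while Gadd45a was lower (1.26 and -0.61).

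Amino acid synthesis and ATF4 targets, the genes of the amino acid stress response, were the list with most lower calls. Of 21 tested, 13 were called lower and none higher (median -0.47), and 16 were called lower under each rescaling. Without the first WT library 2 were called higher. As in the lists of naive factors, keratins, SRF and YAP targets and p53 targets, in the direction with a count of 0 no tested gene had an unadjusted p below 0.05 in limma and voom called none. Chac1, which degrades glutathione, had 7.199 and 6.72 RPKM in WT and 0.869 and 0.839 RPKM in KO (log2 difference -2.89, SE 0.18, limma adjusted p = 2.0e-06). Its promoter window (RefSeq, GRCm38.p6 chr2:119350992-119351291, plus strand) holds 1 match to TGATGNAA, the start of the element that C/EBP and ATF4 bind, searched on both strands and shown in capitals as it reads on the gene's strand.

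Chac1: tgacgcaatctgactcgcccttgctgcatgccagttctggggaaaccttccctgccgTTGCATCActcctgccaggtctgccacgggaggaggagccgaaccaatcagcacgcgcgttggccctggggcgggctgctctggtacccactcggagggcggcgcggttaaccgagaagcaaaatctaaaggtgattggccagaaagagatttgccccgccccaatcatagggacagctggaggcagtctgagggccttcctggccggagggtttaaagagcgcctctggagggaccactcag

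TGATGNAA was found in 6 of the 17 tested genes of this list with a window (35.3%) and in 4 of the 12 that were called lower (33.3%). Over all tested genes with a window it was found in 2.51%, and in 5.29% of all those called lower. This list too was assembled from known genes, ATF4 targets included, and a match is a description of the letters and not a binding site. Mthfd2, of mitochondrial folate metabolism, had 27.1 and 26.8 RPKM in WT and 12.8 and 13.8 RPKM in KO (log2 difference -1.01, limma adjusted p = 2.4e-05). Atf4 itself had 161 and 150.1 RPKM in WT and 92.2 and 93.0 RPKM in KO (log2 difference -0.75, limma adjusted p = 7.9e-04). The serine pathway genes Psph, Phgdh and Psat1 were lower at a log2 difference of -0.98, -0.73 and -0.54, and Trib3, Nars, Aldh18a1 and Asns by -0.83, -0.62, -0.93 and -0.39. Nupr1, a stress-induced nuclear protein, and Pck2, the mitochondrial carboxykinase, are outside the list and were among the 15 largest falls, at 2.92 and 2.69 RPKM in WT and 0.699 and 0.587 RPKM in KO and 4.39 and 4.01 RPKM in WT and 1.06 and 1.04 RPKM in KO (-1.97 and -1.90).

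Glycolysis and hypoxia genes were lower in 6 and higher in 2 of 21 tested. Vegfa had 2.75 and 2.70 RPKM in WT and 1.24 and 1.05 RPKM in KO (log2 difference -1.19, limma adjusted p = 2.6e-04) and the lactate dehydrogenase Ldha 347 and 306 RPKM in WT and 197 and 199 RPKM in KO (log2 difference -0.72, limma adjusted p = 0.03). Egln3 and Pdk1 were lower at a log2 difference of -1.36 and -0.88, and the glucose transporter Slc2a1 was higher by 0.77. Without any 1 of the 4 libraries 2 or 3 were called lower, and without either KO library of day 11, 11. Of 76 tested cytosolic ribosomal protein genes none was called by limma, none had an unadjusted p below 0.05 and voom called 1 lower, and the differences in limma lay between -0.315 and 0.233. Cholesterol synthesis, heat shock and interferon genes gave 3, 5 and 2 higher and 1, 0 and 1 lower of 19, 14 and 11 tested. Over all genes tested 19.6% were called higher and 5.59% lower. The medians of these lists, 0.16, 0.24 and 0.20, came to -0.01, 0.06 and 0.03 when library medians were set equal. Without the second KO library no cholesterol gene was called higher, and 3 or 4 heat shock genes were called without any 1 library. Of the small heat shock proteins Cryab had 0.541 and 0.764 RPKM in WT and 2.78 and 2.93 RPKM in KO (log2 difference 1.99, limma adjusted p = 0.0024), and Hspb8 and Hspb1 were higher by 1.16 and 0.78.

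**Figure D3:**
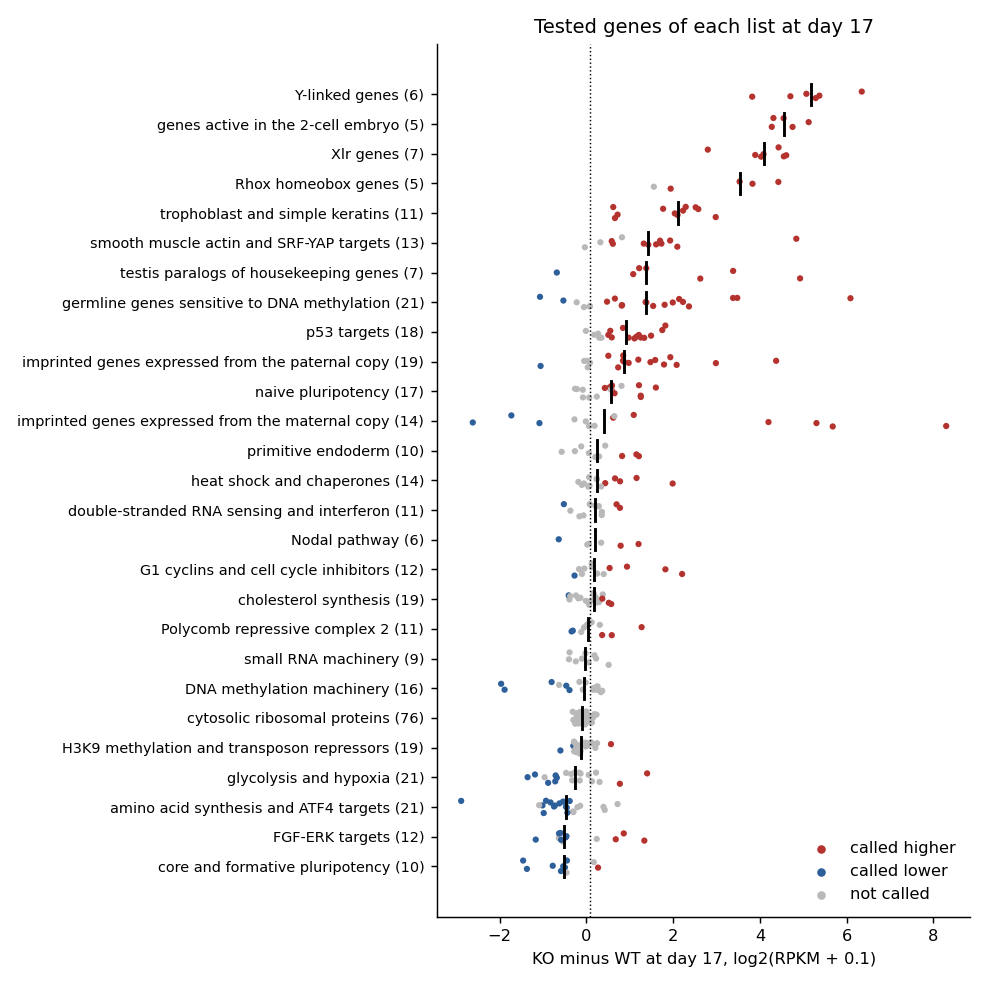
KO minus WT at day 17 in log2(RPKM + 0.1) for each tested gene of the lists with at least 5 tested genes, whose number stands in brackets. Red points were called higher, blue points lower and grey points not called, black bars are list medians and the dotted line is the median of all genes (0.09); Y-linked, 2-cell, Xlr and Rhox genes lie highest, and core and formative factors have the lowest median.

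Some of the 15 largest rises and falls belong to none of these lists. Smtnl1, a muscle protein, had 0.345 and 0.533 RPKM in WT and 15.2 and 16.6 RPKM in KO (log2 difference 4.91, limma adjusted p = 3.4e-07), and Rcsd1, a partner of actin-capping protein, 0.0126 and 0.0377 RPKM in WT and 3.73 and 3.198 RPKM in KO (log2 difference 4.83, limma adjusted p = 1.2e-06). Mlana, a melanocyte antigen, had 0.217 and 0 RPKM in WT and 6.54 and 4.99 RPKM in KO on 4 WT reads in all, and Gm6763 none in WT and at least 48.6-fold more in KO. Among the falls Enpp2, the secreted enzyme autotaxin, had 5.10 and 4.64 RPKM in WT and 0.623 and 0.320 RPKM in KO (log2 difference -3.17, SE 0.29, limma adjusted p = 2.7e-05). Bdh2, of ketone and siderophore metabolism, had 6.63 and 6.195 RPKM in WT and 1.64 and 1.82 RPKM in KO (log2 difference -1.83, limma adjusted p = 1.1e-04), and Slc1a3, a glutamate transporter, 1.93 and 1.81 RPKM in WT and 0.538 and 0.536 RPKM in KO (log2 difference -1.63, limma adjusted p = 1.5e-05). Glyatl3, Fam19a4, Syt4, Gm10451 and Gm17364 were lower at a log2 difference of -1.82, -1.77, -1.75, -1.66 and -2.61, the last on 10 or fewer reads per library and opposite to BC024659.

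The last comparison asked how far day 17 differed from the neighbouring days, each with its own WT and KO libraries. Day 11 had 12.2% of genes called higher and 5.27% lower, and day 25 33.1% and 21.3%. Day 11 shared 922 of the 2251 higher calls of day 17 (41.0%), or 65.7% of its own, and day 25 shared 1083 (48.1%), or 28.6% of its own. Of the 641 lower genes 184 (28.7%) were called lower at day 11, where they made up 30.5% of the lower calls, and 179 (27.9%) at day 25, where they made up 7.3%. Opposite calls were made at day 11 for 31 genes that were higher at day 17 and 10 that were lower, and at day 25 for 222 and 160. Neither other day called 603 of the genes that were higher and 213 of those that were lower, which does not show that the days differ. The difference between KO and WT was tested against that of the other day in the same fit. Against day 11, 291 genes (2.54%) had a more positive and 75 (0.655%) a more negative difference at day 17, but with the 8 libraries of these days alone 17 and 2 were called, so single genes of this comparison are uncertain. Against day 25, 2275 (19.9%) and 1964 (17.14%) were called.

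For the lists, the difference of day 17 was set against that of the other days. Calls against day 11 carry the uncertainty given above. Over all genes 2.54% were more positive at day 17 against day 11 and 19.9% against day 25. p53 targets had a median of 0.30 at day 11, 0.91 at day 17 and -0.07 at day 25. In this list the difference was more positive at day 17 in 9 of 18 genes against day 11 and in 16 against day 25. For Cdkn1a it was 0.63 at day 11, 1.82 at day 17 and 0.05 at day 25, with WT means of 10.1, 5.25 and 11.5 RPKM and KO means of 15.6, 18.8 and 11.8 RPKM on these days. Keratins and trophoblast genes had medians of 1.22, 2.10 and 0.22, with all 11 more positive at day 17 than at day 25. Krt8 had a difference of 1.998 at day 11, 2.29 at day 17 and 0.01 at day 25. SRF and YAP targets were more positive in 11 of 13 against day 25 and more negative in 1, Ankrd1, with Tagln at 0.49 at day 11, 2.10 at day 17 and -0.84 at day 25. Acta2 was the extreme, with KO means of 0.877, 11.09 and 0.771 RPKM at days 11, 17 and 25 (difference of day 17 minus day 25 4.50, limma adjusted p = 1.8e-04).

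Germline genes were set against day 25 likewise, where 11 of 21 were more negative at day 17 and none more positive. Dazl had a difference of 0.77 at day 11, 2.14 at day 17 and 4.56 at day 25. Naive factors were more positive at day 17 than at day 11 in 4 of 17 and more negative than at day 25 in 6. For Nanog the KO means were 195, 164 and 149 RPKM at days 11, 17 and 25 and the WT means 159, 68.7 and 31.7 RPKM. ATF4 targets were more negative at day 17 than at day 25 in 12 of 21, and Chac1 went from -2.89 at day 17 to 0.62 at day 25. Ribosomal protein genes, none of which was called at day 17, were called higher in 67 of 76 at day 25, and 49 were more negative at day 17. Dnmt3a and Dnmt3b were more negative at day 17 than at day 11, with differences between the days of -1.44 and -1.40 (limma adjusted p = 0.007 and 0.025). As single genes of the day 11 comparison both are uncertain.

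**Figure D4:**
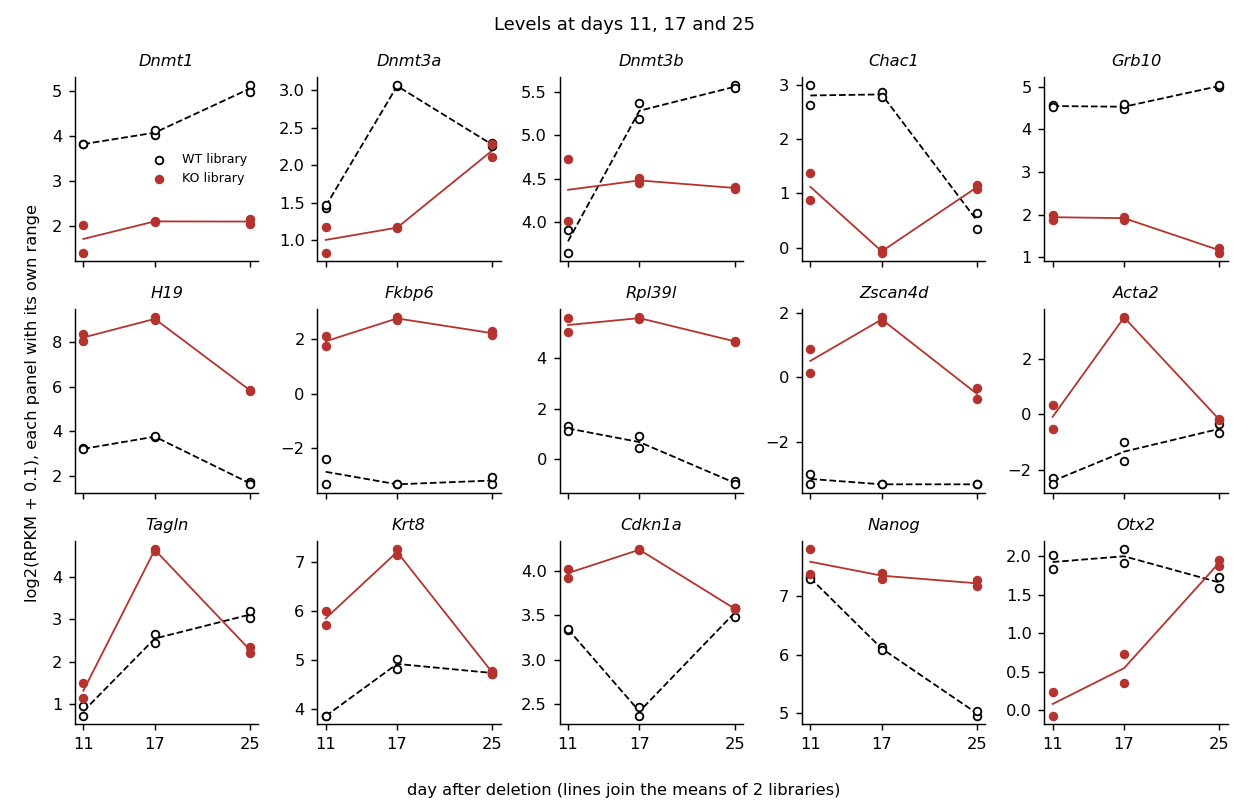
Level of 15 genes at days 11, 17 and 25 in log2(RPKM + 0.1), with open points for WT and red points for KO libraries and lines through the means of 2 libraries; each panel has its own vertical range. The KO level of Acta2, Tagln and Krt8 is highest at day 17, and that of Dnmt3a in WT is highest at day 17 and in KO at day 25.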

How the data were processed

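Total RNA was sequenced after removal of rRNA. The authors trimmed reads with Trim Galore 0.3.5, aligned them with TopHat2 2.0.11 to NCBIM37, discarded a mapping quality below 20 and counted over genes with SeqMonk. Deposited values are linear RPKM made by the authors, although the methods speak of log2 RPM, and strand use in counting is not given in the sources used here. Of 26127 rows 26089 matched GENCODE vM1. Whole reads were recovered from low values (99.8 to 99.9% within 0.1 read). limma 3.58.1 (R 4.3.3, trend) was fitted to log2(RPKM + 0.1) of the 12 libraries of days 11, 17 and 25, with genes above 1 RPKM in at least 2 libraries. Libraries of days 0 to 9, apart from the third day 1 pair, hold a lower share of exon reads (20.2 to 22.0% against 44.2 to 48.8% on days 11 to 25), and none of these days was used for levels. Voom on recovered reads, other pseudocounts, filters, scalings, blocks and left-out libraries were alternatives. Genes are named as Dnmt1, the 15 largest rises and falls called without overlap at 1 RPKM or more, list members, and 8 per direction between days, of which 1 is not reported here. Members and lists were chosen with earlier results of these data known. The script was tested on simulated data.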

Additional observations from a re-analysis of the deposited data

Results flagged for a closer look

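The difference between KO and WT was tested between days, and 291 genes were more positive and 75 more negative at day 17 than at day 11. The genes more positive at day 17 with the largest values were C130073F10Rik (3.09), Acta2 (2.52), Gm14136 (2.01), Mlycd (1.95), Trh (1.92), Slc25a31 (1.91), Casq2 (1.88) and Id4 (1.86), as day 17 minus day 11 on the log2 scale. The means of WT and KO were 66.5 and 16.5 RPKM at day 11 and 32.3 and 30.1 RPKM at day 17 for Trh, the precursor of thyrotropin-releasing hormone. Among the most negative were Enpp2 (-2.27), Vrtn (-2.03), Tsx (-1.98), Metrnl (-1.97), Hist1h2aa (-1.80), Psmb10 (-1.65) and Syt4 (-1.63). Enpp2 rose in WT from a mean of 0.188 RPKM at day 11 to 4.87 RPKM at day 17. Of these 15 genes, 3 kept their call in a fit to the groups compared, and 3 and 2 without the first and the second KO library of day 17.

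Against day 25, 2275 genes were more positive and 1964 more negative at day 17. The largest positive values were those of Acta2 (4.50), Gm10979 (4.39), Gm17426 (4.35), Gm20466 (4.11), Thbs1 (4.10), Gm6763 (3.95), Gm12786 (3.71) and BC080695 (3.55). Gm17426 was at 0 in all 4 libraries of day 17 and had a mean of 1.95 RPKM in WT at day 25, so its value holds no day 17 difference. The largest negative values were those of Gm9805 (-3.97), Chac1 (-3.50), Gm595 (-3.33), 4930502E18Rik (-3.29), 1700013H16Rik (-3.20), Trh (-2.70), 4930461G14Rik (-2.69) and Gm1631 (-2.67). Of these 16 genes 16 kept their call in a fit to the groups compared. Values with 0 or few reads in a group depend on the pseudocount and are no bounds.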

How the results depend on the processing

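At day 17, 2251 higher and 641 lower calls became 1349 and 1535 with library medians set equal, 1589 and 1261 with median-ratio scaling, 1061 and 143 over all 34 libraries, 3399 and 1356 over these without the third day 1 library of each genotype, and 2142 and 576 with the replicate number as a block. Same-numbered libraries deviated together at r = 0.284, -0.172 and 0.049 at days 11, 17 and 25, so the numbers were not taken to pair them. With crossed numbers at day 17 the block gave 2357 and 724. Without 1 library the calls at day 17 ranged from 1256 to 2888 higher and from 261 to 1098 lower, the highest without a KO library of day 11. Where an arm was left with 1 library, it was assumed to vary like the other groups.

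Against day 11, 291 and 75 became 134 higher with medians set equal, 171 and 45 without the filter, 76 and 7 over all 34 libraries, 1315 and 661 without the third day 1 pair, 17 and 2 with the groups compared alone, 105 and 33 with the block and 133 lower with voom. They ranged from 16 to 1145 and from 2 to 686 without 1 library. Against day 25, 2275 and 1964 became 2964 lower with medians set equal, 1082 and 240 over all 34 libraries and 3431 and 2959 without the third day 1 pair, and they ranged from 1230 to 3034 and from 1050 to 2729 without 1 library. The cause of these shifts was not tested. None of the named genes with recomputed values changed direction under the alternatives run. Of the single-gene values 992 kept and 89 lost their call. Of the 30 largest rises and falls, Gm17364 and Glyatl3 lost theirs, both over all 34 libraries. For genes silent in WT, the floor of 3 reads over the 2 WT libraries limits what fold can be given.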

Other observations

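Lineage genes outside those described above were mostly too low to test at day 17. Of 39 Hox genes 1 was tested and not called, of 24 clustered protocadherins 1 and of 8 primitive streak and mesoderm genes 1. Of 10 tested primitive endoderm genes (15 in the table), a list that holds Col4a1 and Col4a2, 3 were called higher, with a median of 0.25. Over all genes tested 19.6% were called higher, with a median of 0.09. The neural marker Neurog2 was at 0 in all 4 libraries. Of 3 metallothioneins, which bind metal ions, 2 were called higher, and 1 without either KO library or the first WT library. Of 2 tested Prame genes, a family expressed in testis and early embryo, 1 was called higher.

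Calls were spread over the chromosomes. On X, 102 of 414 tested genes (24.6%) were called higher and 47 (11.4%) lower, beside 19.6% and 5.59% of all genes tested. Chromosome 13 had the lowest autosomal median (0.00) and 9.96% of its genes called lower. Of 364 lincRNA genes 57 (15.7%) were called higher and 20 (5.50%) lower, and of 10682 protein-coding genes 2121 (19.9%) and 607 (5.68%).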
